A study of Mus musculus with 21 samples.

Results

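Described here are 10 genes of the bone morphogenetic protein (BMP) pathway, out of 23713 genes in the deposited count table of epidermal cells from mice with basal cell carcinoma (BCC) and tumour-free controls. They are the ligands Bmp2, Bmp4 and Bmp7, the secreted inhibitor Fst, the inhibitors Bambi, Smad6 and Smad7, which act at the membrane or inside the cell, and the target genes Id1, Id2 and Id3. The rule names the genes and uses no measured value, though they were chosen with earlier results of these data known. All 10 had a row in the table, and all 10 passed the filter on low counts in each model. The lowest value of any of them in any library was 2.63 CPM (read counts scaled to the size of the library), and 3 counts correspond to 0.189 CPM or less.

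BMPs are secreted dimers of the TGF-beta superfamily that bind paired type I and type II receptor kinases, which phosphorylate SMAD1, SMAD5 and SMAD9. These join SMAD4 in the nucleus and switch on target genes, among them the Id genes, whose products bind basic helix-loop-helix transcription factors and keep them from DNA, and Smad6 and Smad7, whose products feed back on the receptors. In skin, BMP signalling is known for keeping hair follicle stem cells quiescent and for its part in hair shaft and epidermal differentiation, while secreted inhibitors from the dermal papilla oppose it when hair growth starts.

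RNA was sequenced in bulk from tail-skin keratinocytes, the main cells of the epidermis, in 3 models of BCC, with 3 tumour-free control libraries (Con) and 4 tumour libraries (BCC) per model, 21 in all. SmoM2 is an activated form of the Hedgehog receptor protein Smoothened, and these cells were taken 29 days after induction. Gnas-eKO stands for loss of Gnas, which encodes the stimulatory G protein alpha subunit that raises cAMP, at 42 days. PKI is named after an inhibitor of protein kinase A, the kinase that cAMP activates, at 57 days. Each Con group shares the day and the batch (A, B or C) of its model, so model, day and batch cannot be told apart. Each BCC group is set against the Con group of its own batch. The Cre line or promoter behind each allele, the genotype of the Con mice, their age and any pooling of animals are not given in the sources used here. In the file headers, the codes of the SmoM2 BCC libraries begin with BF and those of SmoM2 Con with TJ, as in all Gnas-eKO libraries. What these letters stand for is not given, and in SmoM2 they cannot be told apart from the tumour. Every library has a code of its own, but the labels do not say that each is a separate animal, so p-values measure only the spread between these libraries.

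Library totals ranged from 16645858 to 22251132 counts. The leading principal component of log2 CPM, with 30.2% of the variance, ran from -57.2 to -40.4 over the 9 Con libraries. For 11 of the 12 BCC libraries it ran from 32.4 to 59.4. Gnas-eKO BCC replicate 2 lay at -20.4, apart from both, so the Gnas-eKO changes of the 10 genes are given with and without it. As a check of the labels, Gnas went from 174 ± 3.00 CPM (SD, n = 3) to 80.4 ± 28.1 (n = 4) in Gnas-eKO, every BCC library below every Con library (log2 fold change -1.11 ± 0.25 SE, edgeR adjusted p = 0.0647). Ptch1, a Hedgehog target, rose in all 3 models, by 4.70 on the log2 scale for SmoM2, 4.14 for Gnas-eKO and 2.99 for PKI. All 10 keratinocyte markers were present in every group, and their sum was 53571 to 70714 CPM in SmoM2 Con and 37150 to 52119 in SmoM2 BCC, 55686 to 67023 and 28951 to 49194 in Gnas-eKO, and 50863 to 68628 and 44406 to 72208 in PKI. Of these 10, 2 were called higher and 5 lower in SmoM2, none in Gnas-eKO, and 2 higher and 3 lower in PKI. The summed fibroblast and dermal papilla markers were 42.7 to 66.4 CPM in SmoM2 Con and 410 to 551 in SmoM2 BCC, 37.5 to 60.5 and 125 to 612 in Gnas-eKO, and 32.3 to 75.7 and 186 to 236 in PKI. Of the 10, 3 of 8 tested were called higher in SmoM2, 1 of 8 in Gnas-eKO and 4 of 7 in PKI, and none was called lower. Dcn made up most of that sum in SmoM2 BCC, with 362 to 500 CPM. Col1a2 stood at 1.19 to 3.25 CPM in SmoM2 Con and 7.66 to 22.1 in SmoM2 BCC, Pdgfrb at 0.0541 to 0.115 and 0.403 to 0.926, and Pdgfra at 0.322 to 0.574 and 0.338 to 0.88. Like Pdgfra, Col1a1 (1.19 to 1.89 and 1.16 to 3.66), Col3a1 (0.781 to 6.11 and 1.85 to 4.26) and Vim (20.3 to 26.3 and 20.2 to 30.8) overlapped. In PKI BCC, Vim stood at 63.7 to 139 CPM and Dcn at 61.7 to 119. Leukocyte markers in PKI summed to 47.6 to 120 CPM in the controls and 256 to 477 in the tumours, with 7 of 9 tested called higher. Melanocyte markers in PKI summed to 167 to 217 CPM in Con and 82 to 130 in BCC, with 5 of 6 called lower, and 2 of 6 were called lower in SmoM2. The part of these other cells in the results was not tested.

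To show the stretches upstream of genes that moved apart or together, promoters are printed for Bmp4, which changed in opposite directions in 2 models, and for Id2 and Id3, which were highest in the same library in 5 of the 6 groups. Each is the 250 bases before the RefSeq start, 5' to 3' on the gene's strand (build GRCm38.p6). Of the 10 genes, 4 had an entry in the RefSeq promoter table used here, and the fourth was Smad6. The stretches lie at chr14:46390670-46390919 (Bmp4, minus strand), chr12:25096093-25096342 (Id2, minus strand) and chr4:136143572-136143821 (Id3, plus strand). Capitals mark letters that matched 1 of 6 motifs searched.
Bmp4: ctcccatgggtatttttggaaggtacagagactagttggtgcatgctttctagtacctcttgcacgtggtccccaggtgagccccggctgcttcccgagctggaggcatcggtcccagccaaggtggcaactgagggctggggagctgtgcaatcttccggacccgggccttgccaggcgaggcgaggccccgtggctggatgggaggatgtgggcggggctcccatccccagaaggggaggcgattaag
Id2: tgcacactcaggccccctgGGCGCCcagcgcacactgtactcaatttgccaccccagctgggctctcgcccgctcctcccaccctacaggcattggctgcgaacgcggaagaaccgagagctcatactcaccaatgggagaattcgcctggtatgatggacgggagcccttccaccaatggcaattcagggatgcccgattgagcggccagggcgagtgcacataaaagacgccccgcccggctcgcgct
Id3: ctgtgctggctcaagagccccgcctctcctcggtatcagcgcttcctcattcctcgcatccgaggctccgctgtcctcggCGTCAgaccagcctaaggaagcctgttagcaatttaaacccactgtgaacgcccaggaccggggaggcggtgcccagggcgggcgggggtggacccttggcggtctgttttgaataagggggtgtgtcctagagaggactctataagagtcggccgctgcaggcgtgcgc
The motifs, searched on both strands, were the GC-rich SMAD element GGCGCC (found in 9.59% of all 32851 promoters in the table), the palindromic SMAD box GTCTAGAC (0.167%), the short BMP element GCCGNCGC (6.89%), the GLI motif GACCACCCA (0.225%), the full cAMP response element TGACGTCA (1.55%) and its short form TGACG (17.8%), which the full element contains. GGCGCC lies 231 to 226 bases before the Id2 start, and TGACG lies 170 to 166 bases before the Id3 start on the other strand. The Bmp4 stretch holds no match to any of the 6. The start RefSeq uses for Id2 is 1048 bases from the outermost GENCODE gene start, and that for Id3 is 325 bases away, so other start sites are not covered. A match of letters is a description and not a binding site.

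Per kilobase of exon, the levels of the 10 genes in the 9 Con libraries spanned a wide range. Id1 was highest, at 52.2 ± 13.9 CPM per kb (SD, n = 9), followed by Bmp7 at 32.1 ± 3.57, Id3 at 25.5 ± 7.26 and Id2 at 20.2 ± 5.65. The other genes were far lower on the same scale, with Bmp2 at 7.02 ± 0.743, Fst at 6.71 ± 0.815, Smad7 at 5.63 ± 0.744, Bmp4 at 4.45 ± 1.31, and Bambi and Smad6 both at 2.96, with SDs of 1.04 and 0.809. Bmp7 was thus the most abundant of the 3 ligand transcripts per length, and its 9 libraries varied less than those of the Id genes.

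**Figure D1:**
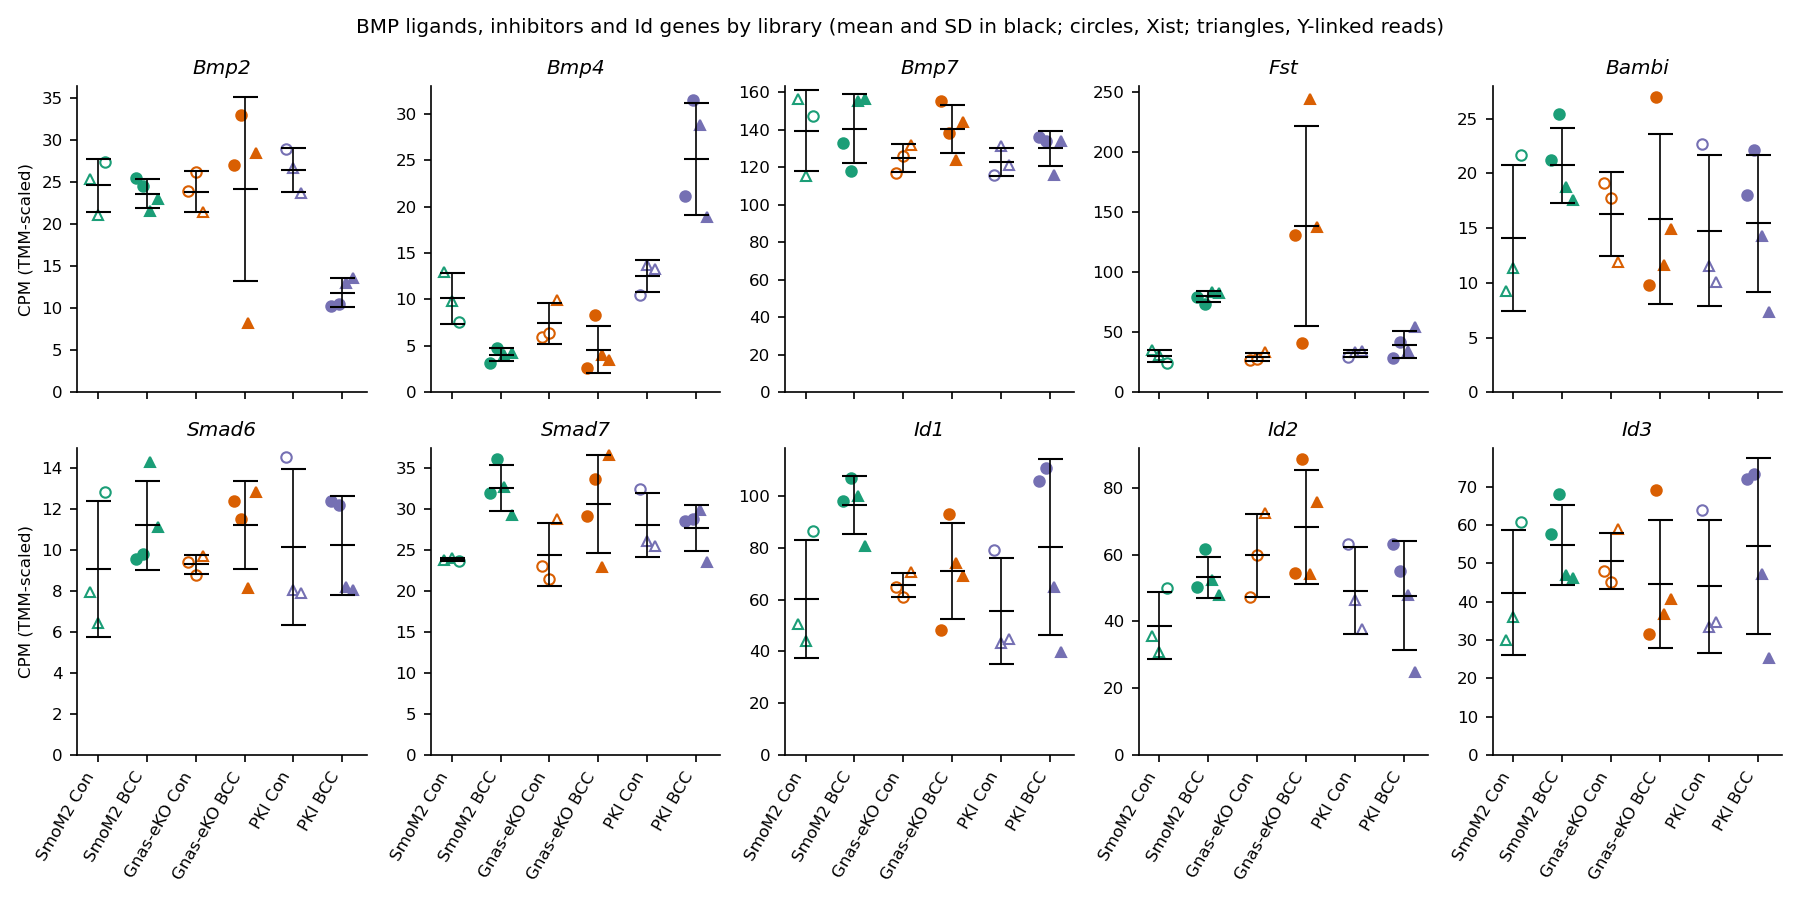
CPM of each gene (vertical axis, linear from 0) in every library, by model and by Con (open) or BCC (filled), with the mean and SD of each group in black. Bmp2 is low in the 4 PKI BCC libraries, Bmp4 is low in SmoM2 BCC and high in PKI BCC, and Fst is high in SmoM2 BCC and in Gnas-eKO BCC. Circles are libraries with Xist reads and triangles those with Y-linked reads.

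In SmoM2, 3 of the 10 genes passed the test between BCC and Con, against 29.7% of all 16370 genes tested: Fst and Smad7 rose and Bmp4 fell. In Gnas-eKO none of the 10 passed edgeR's test, where 1.63% of 16409 genes did. There 1 of the 10, Fst, had an unadjusted p under 0.05, as did 19.6% of all genes, and DESeq2 called 1, again Fst, and 9.35% of all genes. In PKI, 2 of the 10 passed, against 34.5% of 16397 genes: Bmp4 rose and Bmp2 fell. In these edgeR fits of all libraries in a model, the shares called among the 10 genes were thus close to or below the background. SmoM2 gave a median log2 fold change over the 10 of 0.42, Gnas-eKO of 0.15 and PKI of 0.08, beside 0.00, 0.02 and 0.00 over all genes tested. BCC and Con libraries did not overlap for 3 of the 10 genes with SmoM2, 1 with Gnas-eKO and 2 with PKI, where 38.8%, 19.7% and 43.2% of all genes tested did not. Bmp7, Bambi, Smad6 and the 3 Id genes passed edgeR's test in none of the models with all libraries in the fit and no covariate. With all libraries, DESeq2 called Id1 (adjusted p = 0.00432) and Id2 (adjusted p = 0.022) in SmoM2, and so did limma on the deposited signal (adjusted p = 0.0406 and 0.0462), where the tools called 32.4% and 29.1% of all genes. Without Gnas-eKO BCC replicate 2, edgeR called 2 of the 10 in that model, Bmp4 and Fst, against 11.8% of all genes. In bulk RNA, fewer cells that express a gene and less of its RNA per cell cannot be told apart, which holds for every change given here.

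**Figure D2:**
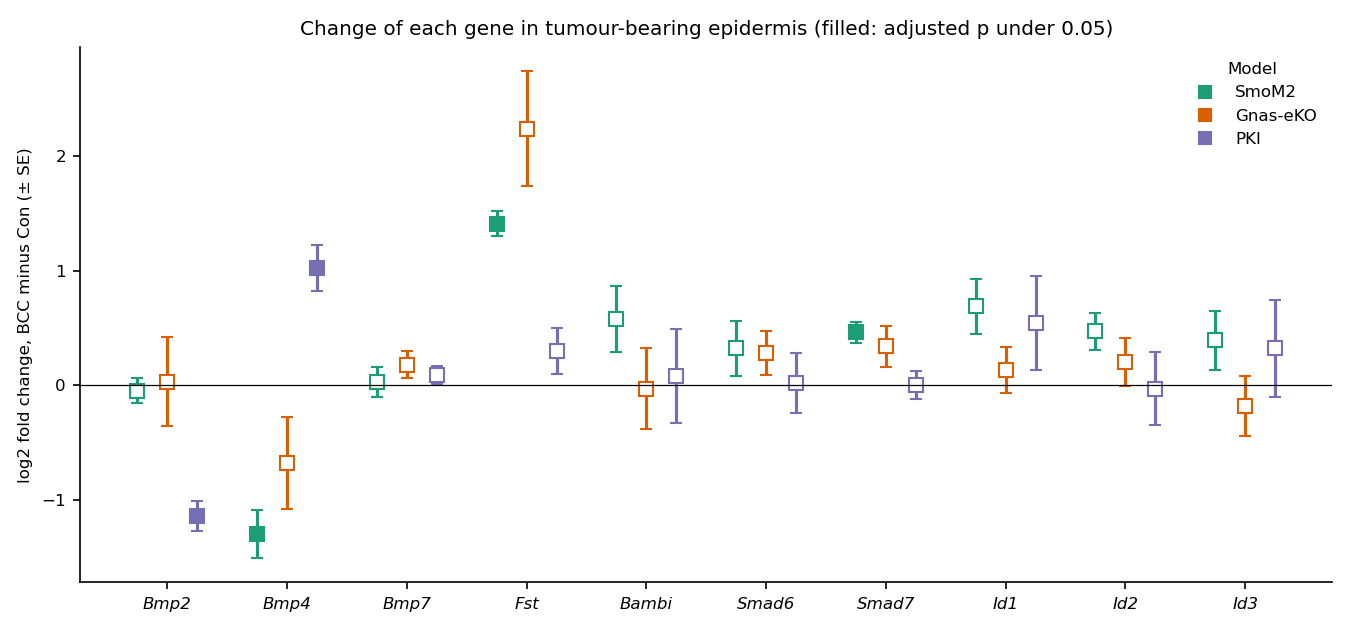
Log2 fold change of each gene, BCC minus Con (vertical axis, with standard error), in SmoM2, Gnas-eKO and PKI. Filled squares have an edgeR adjusted p under 0.05: Bmp4, Fst and Smad7 in SmoM2, and Bmp2 and Bmp4 in PKI.

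Bmp4 (chr14:46383520-46390669, minus strand), the ligand best known in skin from the dermal papilla and hair matrix, was the only 1 of the 10 genes to pass in 2 models, and it did so in opposite directions. In SmoM2 the Con libraries held 13, 9.81 and 7.57 CPM and the BCC libraries 3.16, 4.78, 4.07 and 4.28. Every tumour library was below every control. The mean fell from 10.1 ± 2.7 (SD, n = 3) to 4.08 ± 0.675 CPM (n = 4). The fitted log2 change was -1.30 ± 0.21 (SE, edgeR adjusted p = 0.0015), a 2.46-fold fall. In PKI the Con libraries held 10.5, 13.7 and 13.3 CPM and the BCC libraries 21.1, 31.5, 28.8 and 18.9. Here every tumour library was above every control. The mean rose from 12.5 ± 1.76 to 25.1 ± 6.03 CPM, with a fitted log2 change of 1.02 ± 0.20 (edgeR adjusted p = 0.00454), a 2.03-fold rise. Both calls held with each library left out in turn.

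In Gnas-eKO, Bmp4 stood at 5.93, 6.42 and 9.91 CPM in Con and at 2.63, 8.31, 4.01 and 3.48 in BCC. The groups overlap through BCC replicate 2, which had the highest tumour value. The log2 change of -0.68 ± 0.40 did not pass (edgeR adjusted p = 0.385), and without that library it was -1.12 with an adjusted p of 0.0422. With any other single library left out it did not pass (edgeR adjusted p up to 0.703). By group means, Bmp4 was highest in PKI BCC, which did not overlap the next group, PKI Con, and each later pair of neighbours overlapped: SmoM2 Con, Gnas-eKO Con, Gnas-eKO BCC and SmoM2 BCC. Exons of Gm15217 overlap those of Bmp4 on the other strand. Whether counting used the strand is not stated, so reads of the 2 genes cannot be told apart. Gm15217 was not analysed here, and Gm15222, the other gene on that strand, had 1.26 CPM or less in every library.

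Bmp2 (chr2:133552159-133562885, plus strand), the ligand closest to Bmp4 in sequence, changed in PKI. Con libraries of PKI held 28.9, 26.6 and 23.7 CPM and BCC libraries 10.2, 10.5, 13 and 13.6. All tumour values lay below all control values. The mean fell from 26.4 ± 2.59 (SD, n = 3) to 11.8 ± 1.72 CPM (n = 4). The fitted log2 change was -1.14 ± 0.13 (SE, edgeR adjusted p = 0.000398), a 2.21-fold fall, and the call held with each library left out. In SmoM2 the level was 24.6 ± 3.17 CPM in Con and 23.6 ± 1.73 in BCC, with overlapping groups. In Gnas-eKO the Con libraries held 23.9, 26.2 and 21.4 CPM and the BCC libraries 27, 32.9, 8.24 and 28.4. A single tumour library, replicate 3, was far below the rest, and the mean difference was 0.03 ± 0.39 on the log2 scale, and -0.15 without BCC replicate 2. The 5 groups other than PKI BCC had means between 23.6 and 26.4 CPM, with overlap between neighbours in that order, while PKI BCC did not overlap the group next to it. Only Gnas-eKO BCC replicate 3 lay below the PKI BCC libraries.

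The third ligand, Bmp7 (chr2:172868012-172940321, minus strand), which signals through the same SMADs and is abundant in keratinocytes, kept nearly the same level throughout. Group means ran from 123 ± 7.68 CPM in PKI Con (n = 3) to 141 ± 18.5 in SmoM2 BCC (n = 4), and all neighbouring groups overlapped. SmoM2 gave a log2 change of 0.03 ± 0.13, Gnas-eKO of 0.18 ± 0.12 (0.19 without BCC replicate 2) and PKI of 0.09 ± 0.08, none past the threshold. So the 3 ligands did not move as 1 group: in PKI Bmp4 rose, Bmp2 fell and Bmp7 did not pass.

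Fst (chr13:114452290-114458951, minus strand) encodes follistatin, a secreted protein that traps activins tightly and some BMPs less tightly. In SmoM2 it stood at 35, 31.3 and 24.7 CPM in Con and at 79.5, 73.6, 83.3 and 82.9 in BCC. The 4 tumour libraries lie close together and all above the controls. The mean rose from 30.3 ± 5.23 (SD, n = 3) to 79.8 ± 4.49 CPM (n = 4). The fitted log2 change was 1.41 ± 0.11 (SE, edgeR adjusted p = 2.04e-05), a 2.66-fold rise. This was the lowest adjusted p among the 10 genes over the 3 models. Exons of Gm47040 overlap Fst on the other strand, and that gene had 0.456 CPM or less in every library.

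In Gnas-eKO the Con libraries held 27.2, 27.5 and 33.7 CPM of Fst and the BCC libraries 131, 40.9, 244 and 138. All 4 tumour libraries were above the controls, with replicate 2 only just so and replicate 3 far above the others. The log2 change of 2.24 ± 0.50, from 29.5 ± 3.68 to 138 ± 83 CPM, had a wider error than in SmoM2 and missed the threshold (edgeR adjusted p = 0.0647). Without replicate 2 it was 2.55 with an adjusted p of 0.00121, and with any other single library left out it did not pass (adjusted p up to 0.251). DESeq2 (adjusted p = 3.93e-05) and an edgeR fit of all 21 libraries together (adjusted p = 0.000965) called it with every library kept. In PKI the libraries held 29.4, 33.5 and 34.7 CPM in Con and 28.5, 42, 34.3 and 54.6 in BCC. The groups overlap, and the log2 change of 0.30 ± 0.20 did not pass (edgeR adjusted p = 0.285). The order of group means ran from Gnas-eKO BCC through SmoM2 BCC, which overlapped it, to PKI BCC, which did not overlap SmoM2 BCC, and then to the 3 Con groups at 29.5 to 32.5 CPM.

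Smad7 encodes an inhibitory SMAD that blocks receptors of both the BMP and TGF-beta branches. In SmoM2 its Con libraries held 23.8, 24 and 23.7 CPM and its BCC libraries 32, 36.1, 32.7 and 29.3. Controls were nearly identical, and every tumour library was above them. The mean rose from 23.9 ± 0.154 to 32.5 ± 2.8 CPM, with a fitted log2 change of 0.46 ± 0.09 (edgeR adjusted p = 0.00368), a 1.38-fold rise. In Gnas-eKO the change was 0.34 ± 0.18 (24.4 ± 3.83 to 30.6 ± 5.99 CPM), or 0.29 without BCC replicate 2, and in PKI 0.00 ± 0.12 (28 ± 3.91 to 27.7 ± 2.8 CPM), with overlapping groups in both.

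Smad6 (chr9:63953076-64022059, minus strand), the inhibitory SMAD that acts mainly on BMP receptors, had low levels in all groups, with means between 9.06 ± 3.34 CPM in SmoM2 Con and 11.2 ± 2.12 in Gnas-eKO BCC. Its log2 changes were 0.32 ± 0.24, 0.28 ± 0.19 and 0.02 ± 0.26 in SmoM2, Gnas-eKO and PKI, none past the threshold, with 0.27 in Gnas-eKO when BCC replicate 2 was left out. Bambi encodes a decoy receptor without kinase activity. Its SmoM2 Con libraries held 9.23, 11.4 and 21.7 CPM and its BCC libraries 21.2, 25.4, 18.8 and 17.6. Con replicate 3 lies among the tumour libraries, and the other 2 controls below all of them. The log2 change was 0.58 ± 0.29 (edgeR adjusted p = 0.184), against -0.03 ± 0.35 in Gnas-eKO and 0.08 ± 0.41 in PKI. Without BCC replicate 2 the Gnas-eKO value was -0.41 (edgeR adjusted p = 0.331).

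Id1 (chr2:152736251-152737410, plus strand), widely used as a readout of BMP signalling, had group means from 55.8 to 96.5 CPM and SDs from 4.67 to 34.2 within groups. In SmoM2 the Con libraries held 50.4, 44.2 and 86.5 CPM and the BCC libraries 98.3, 107, 100 and 80.9. Again Con replicate 3 reached the tumour range while the other 2 controls lay below it. The log2 change of 0.69 ± 0.24, from 60.3 ± 22.9 (SD, n = 3) to 96.5 ± 11 CPM (n = 4), missed the threshold (edgeR adjusted p = 0.0652). In PKI the Con libraries held 79.3, 43.2 and 44.7 CPM and the BCC libraries 106, 111, 64.9 and 39.7. Both groups there span a high and a low set, and the log2 change of 0.54 ± 0.41 did not pass (edgeR adjusted p = 0.357). With a library left out it ran from 0.33 to 0.88 and never passed. With a term for the replicate number (the replicate block) it was 0.78 and passed (edgeR adjusted p = 0.0401). In Gnas-eKO the values were 65, 61.2 and 70.5 CPM in Con and 48.1, 93.3, 74.2 and 69.2 in BCC, a log2 change of 0.13 ± 0.20. The highest tumour value there belonged to BCC replicate 2, and without it the change was -0.02.

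Id2 (chr12:25093799-25097140, minus strand), which is also expressed in the hair follicle and in lymphoid cells, had a log2 change of 0.47 ± 0.16 in SmoM2 that missed the threshold (edgeR adjusted p = 0.0602). Gnas-eKO gave 0.20 ± 0.21, or 0.05 without BCC replicate 2, and PKI -0.03 ± 0.32. Its SmoM2 Con libraries held 35.5, 30.7 and 49.9 CPM and its BCC libraries 50.4, 61.8, 52.4 and 48, so the groups overlap only through Con replicate 3 and BCC replicate 4. Id3 (chr4:136143497-136145755, plus strand) gave log2 values of 0.39 ± 0.26 in SmoM2 (edgeR adjusted p = 0.321), -0.18 ± 0.26 for Gnas-eKO and 0.32 ± 0.42 for PKI, none past the threshold. Without BCC replicate 2 the Gnas-eKO value was -0.46 (edgeR adjusted p = 0.0971). Its SmoM2 Con libraries held 30, 36.1 and 60.8 CPM and its BCC libraries 57.7, 68.2, 46.9 and 46.2. As for Id1 and Bambi, the other 2 controls lay below all tumour libraries.

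In SmoM2 the edgeR calls of 5 genes changed with a single control library. Without Con replicate 3, 8 of the 10 genes passed edgeR's test instead of 3, against 25.1% of all genes instead of 29.7%, and 7 of them were higher in BCC: Id1 (log2 change 1.04, adjusted p = 0.000231), Bambi (1.03, adjusted p = 0.00259), Id3 (0.74, adjusted p = 0.0179), Id2 (0.69, adjusted p = 0.00257) and Smad6 (0.65, adjusted p = 0.0438), besides Fst and Smad7. Leaving out any other library of the model gave no call for these 5 genes in edgeR, while Id1 and Id2 were called by DESeq2 and limma with every library kept, as given above. Con replicate 3 was the only control of SmoM2 with more reads of Xist, as in a female, than of 4 Y-linked genes (Ddx3y, Eif2s3y, Kdm5d and Uty). It held 869 CPM of Xist, and the other 2 held 0.0459 and 0.172. The same rule split all 21 libraries into those called here libraries with Xist (514 to 1280 CPM of Xist and at most 0.0516 of the Y-linked genes) and libraries with Y-linked reads (188 to 256 CPM of these genes and at most 0.302 of Xist).

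**Figure D3:**
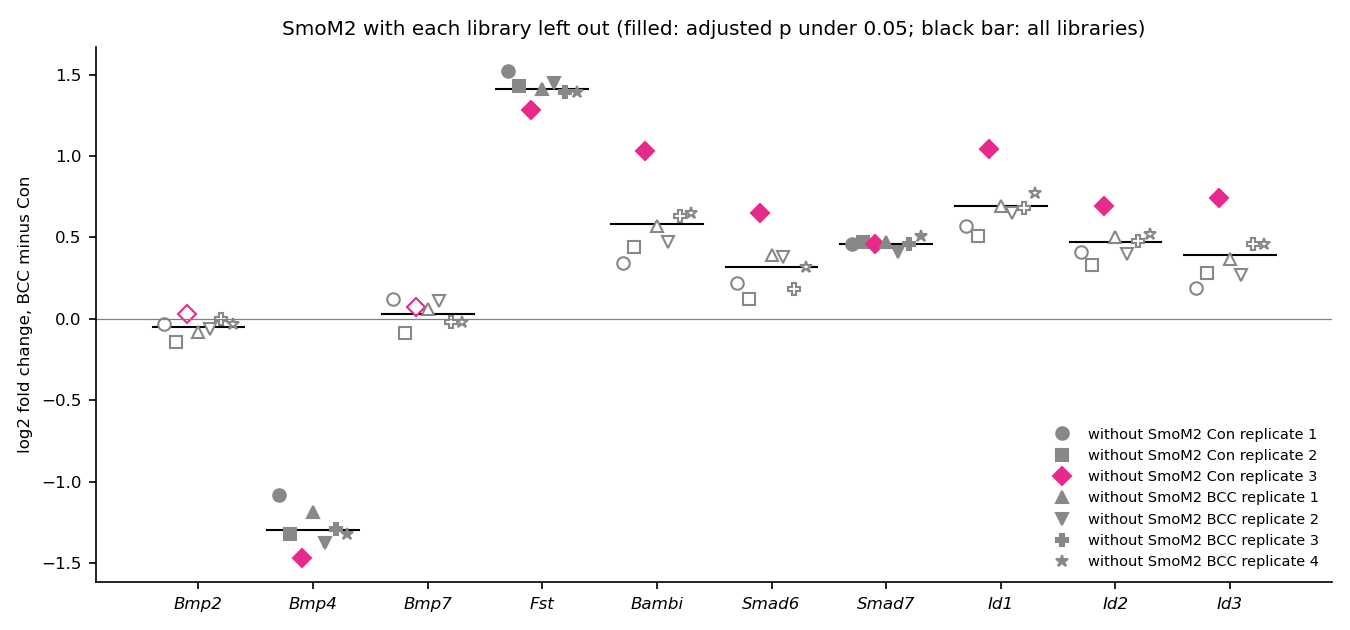
Log2 fold change, BCC minus Con, of each gene in SmoM2 (vertical axis) with each of the 7 libraries left out in turn. Filled symbols have an edgeR adjusted p under 0.05 and black bars give the value with all libraries. Leaving out Con replicate 3 (pink diamonds) raises Id1 from 0.69 to 1.04 and Bambi from 0.58 to 1.03.

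Each group held libraries with Xist reads and libraries with Y-linked reads, 1 or 2 of each kind, so this difference could be followed across all 21 libraries with the group means kept. This comparison was added after seeing the data. Bambi was higher in libraries with Xist, by 0.72 ± 0.16 on the log2 scale (edgeR adjusted p = 0.0206), and in 5 of the 6 groups every library with Xist was above every library with Y-linked reads. It was the 1 gene of the 10 to pass, against 2.32% of 17695 genes, and it no longer passed without SmoM2 Con replicate 3 (adjusted p = 0.0728) or without PKI Con replicate 1 (adjusted p = 0.0761). Id3 differed by 0.55 ± 0.16 (edgeR adjusted p = 0.0777), Id1 by 0.45 ± 0.15 (adjusted p = 0.149) and Id2 by 0.29 ± 0.14 (adjusted p = 0.335), none past the threshold. Neither did Smad6 pass (0.30 ± 0.13, edgeR adjusted p = 0.301), nor Fst, which was lower with Xist (-0.45 ± 0.19, adjusted p = 0.258). Bmp2, Bmp4, Bmp7 and Smad7 lay between -0.11 and 0.20.

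Within PKI alone, Id1 was higher in the libraries with Xist by 0.97 ± 0.16 (edgeR adjusted p = 0.0302) and Smad6 by 0.70 ± 0.12 (adjusted p = 0.0257), where 1.8% of all genes passed. Within Gnas-eKO the Id1 difference was -0.07 ± 0.21, and it was not tested whether the difference itself varies between models. With the kind of library as a covariate in the SmoM2 fit, 6 of the 10 genes passed, against 31.8% of all genes: Bambi (0.53, edgeR adjusted p = 0.0371), Id1 (0.66, adjusted p = 0.0172) and Id2 (0.44, adjusted p = 0.0211) joined the 3 called without it. Among the 4 SmoM2 libraries with Y-linked reads, Id1 averaged 47.3 CPM in 2 Con and 90.5 in 2 BCC libraries, and among the 3 with Xist it stood at 86.5 CPM in 1 Con library and averaged 102 in 2 BCC libraries. On the log2 scale, BCC minus Con with Y-linked reads was 0.93 for Id1, 0.82 for Bambi and 0.60 for Id2. With Xist it was 0.24, 0.10 and 0.16, against a single Con library. Whether the change differs between these kinds of library was not tested.

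Id1 was compared with the other 9 genes for the library that ranked highest or lowest in each group. The library with the highest Id1 in its group also had the highest Id3 in 6 of the 6 groups, the highest Id2 in 5 and the highest Bambi in 5. Of 17694 other genes, 208 shared the highest library with Id1 in 5 or more groups and 10 in all 6. At least 4 groups were shared by 8.19% of those genes. Of the ligands, Bmp4 shared the highest library in 4 groups, Bmp2 in 3 and Bmp7 in 1. The library with the lowest Id1 also had the lowest Id3 in 5 groups, and the lowest Id2, Bambi, Smad6 and Smad7 in 3 each. Sharing in at least 3 groups was common, for 27.4% of all genes at the highest library and 23.5% at the lowest, while 0.927% shared the lowest in 5 or more. These counts are a description, with no test.

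Differences between the models in the BCC effect were tested on the 14 libraries of each pair. Between PKI and SmoM2, 4 of the 10 genes passed, against 24.9% of 17261 genes tested. Bmp4 had the largest difference, 2.32 ± 0.30 on the log2 scale, with a rise of 1.02 in PKI and a change of -1.30 in SmoM2 (edgeR adjusted p = 0.000136). The effect on Bmp2 was lower in PKI by 1.10 (-1.10 ± 0.17, edgeR adjusted p = 0.000573). That on Fst was lower in PKI by the same amount (-1.10 ± 0.25, edgeR adjusted p = 0.00602). Smad7 differed by -0.47 ± 0.15 (edgeR adjusted p = 0.0343), a call that 6 of the 14 fits with a library left out did not make.

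Between PKI and Gnas-eKO, 1 of the 10 genes passed, against 9.06% of 17254: Bmp4, with a difference of 1.70 ± 0.46 (edgeR adjusted p = 0.0369). Of the 14 fits with a library left out, 11 lost this call, with edgeR adjusted p up to 0.091 and differences of 1.44 or more in all 14. For Fst the effect was lower in PKI by 1.94 (-1.94 ± 0.58, edgeR adjusted p = 0.0567), and without Gnas-eKO BCC replicate 2 it passed (-2.24, adjusted p = 0.00178). Bmp2 differed by -1.17 ± 0.45 (edgeR adjusted p = 0.123), and without Gnas-eKO BCC replicate 3, the library with low Bmp2, by -1.46 (adjusted p = 0.000918). For Fst and Bmp2 these were the only calls among the 14 fits with a library left out. Between Gnas-eKO and SmoM2 none of the 10 passed edgeR's or DESeq2's test, where edgeR called 0.175% of 17151 genes. None of the 10 had an unadjusted p under 0.05 there, where 8.74% of all genes did, and the differences were 0.84 ± 0.55 for Fst and 0.62 ± 0.48 for Bmp4. A p that misses the threshold does not show that the models act alike. A shift shared by BCC and Con of a batch drops out of these contrasts, and a shift in one of them does not.

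The rest of the pathway was followed in a list of 75 other ligands, receptors, SMADs, inhibitors and targets, of which 66 had a row. In SmoM2, 40 of 59 tested genes passed (67.8%, against 29.7% of all genes), 36 higher and 4 lower, with a median log2 change of 0.67. In Gnas-eKO, 5 of 58 passed (8.62%, against 1.63%), all 5 higher, with a median of 0.47. Without BCC replicate 2, 20 passed there, with 11.8% of all genes. Without any 1 of the Con libraries none did, with 0 genes called in all without Con replicate 1 or 2 and 0.0237% without Con replicate 3. In PKI, 32 of 57 passed (56.1%, against 34.5%), 18 higher and 14 lower, with a median of 0.05. The fibroblast and, in PKI, leukocyte marker sums given above differed in the same comparisons, and their part in these counts was not tested.

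Of the other ligands, 10 of 11 tested passed in SmoM2, all higher, 3 of 11 in Gnas-eKO, all higher, and 9 of 12 in PKI, 7 higher and 2 lower. These are 90.9%, 27.3% and 75%, beside 29.7%, 1.63% and 34.5% of all genes. Tgfb3, a TGF-beta ligand, rose in all 3 models, from 10.3 to 98.8 CPM in SmoM2 (log2 change 3.28 ± 0.12, edgeR adjusted p = 1.94e-07), by 2.91 in Gnas-eKO and by 0.90 in PKI. The Gnas-eKO call of Tgfb3 was lost in 6 of the 7 fits with a library left out (edgeR adjusted p up to 0.167, and 0.000322 without BCC replicate 2). It was also lost with the kind of library as a covariate (edgeR adjusted p = 0.0542). The PKI call was lost without Con replicate 2 (edgeR adjusted p = 0.0509). Bmp3, a BMP that opposes the others through activin receptors, rose from 0.855 to 25.4 CPM in SmoM2 (4.87 ± 0.32, edgeR adjusted p = 1.22e-05). It also rose by 3.46 in Gnas-eKO, a call lost without any 1 of the 3 Con libraries (edgeR adjusted p up to 0.127), and stood at 0.887 and 1.07 CPM in PKI Con and BCC. Bmp6, a BMP ligand named here after its values were seen, was the only 1 of 10 ligands tested in both SmoM2 and PKI to be called in opposite directions. It rose from 13.9 ± 1.43 to 26.7 ± 6.83 CPM in SmoM2 (0.95 ± 0.19, edgeR adjusted p = 0.00512), and it fell from 10.6 ± 0.639 to 6.93 ± 0.628 in PKI (-0.61 ± 0.13, edgeR adjusted p = 0.0077), a call lost in the fit of all libraries (adjusted p = 0.163). The difference between these models was -1.56 ± 0.23 (edgeR adjusted p = 0.00039), opposite in sign to that of Bmp4. In Gnas-eKO its log2 change of 1.13 ± 0.44 did not pass (edgeR adjusted p = 0.211), and without BCC replicate 2 it was 1.37 (adjusted p = 0.0477). With any other single library left out it did not pass there (edgeR adjusted p up to 0.458). Inhba, the activin A subunit that follistatin binds, rose from 0.467 to 4.58 CPM in SmoM2 and from 0.658 to 4.4 in PKI. In Gnas-eKO it stood at 0.411 ± 0.31 CPM in Con and 20.3 ± 14.7 in BCC, every tumour library above every control (log2 change 5.60 ± 1.13, edgeR adjusted p = 0.052). Without BCC replicate 2 it passed (5.99, edgeR adjusted p = 0.000622), and with any other single library left out it did not (adjusted p up to 0.231). Bmp1, on the list by its name, is a protease that matures collagen and cleaves the inhibitor chordin and not a BMP ligand, and it rose by 1.27 in SmoM2, by 0.93 with Gnas-eKO and by 0.59 with PKI. In Gnas-eKO that call was lost in 5 of the 7 fits with a library left out (edgeR adjusted p up to 0.196). It was also lost with the replicate block (edgeR adjusted p = 0.0716) and the covariate for the kind of library (adjusted p = 0.0585).

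Of the secreted inhibitors other than Fst, 8 of 12 tested rose in SmoM2 and none fell (66.7%, against 29.7% of all genes), with a median log2 change of 1.48. In PKI none of 11 rose and 4 fell (36.4%, near the 34.5% of all genes), with a median of -0.25, and in Gnas-eKO 1 of 12, Sostdc1, passed (8.33%, against 1.63% of all genes). Of the 11 tested in both SmoM2 and PKI, 3 were called in opposite directions, Grem1, Nbl1 and Fstl4, the last named after its values were seen and lost in PKI in 6 of the 7 fits with a library left out. Tested directly, the effect was lower in PKI than in SmoM2 for 8 of 12 and higher for none, where 24.9% of all genes passed in either direction. Grem1 (gremlin), which binds BMP2 and BMP4, rose from 16.3 ± 3.77 to 48.1 ± 9.39 CPM in SmoM2 (1.58 ± 0.20, edgeR adjusted p = 0.000717), and it fell from 22.6 ± 4.13 to 6.06 ± 2.22 in PKI (-1.88 ± 0.25, edgeR adjusted p = 0.00104). The difference between the 2 models was -3.45 (edgeR adjusted p = 4.51e-05), opposite in sign to that of Bmp4. Nbl1, another BMP antagonist, rose by 0.42 in SmoM2 and fell by 0.86 in PKI. Its SmoM2 call was lost without Con replicate 2 (edgeR adjusted p = 0.053) and in the fit of all libraries (adjusted p = 0.0706). Sostdc1, an inhibitor of BMP and Wnt signalling found in the hair follicle, rose from 111 to 382 CPM in SmoM2 and from 125 to 308 in Gnas-eKO, where 5 of the 7 fits with a library left out lost the call (edgeR adjusted p up to 0.206). So did the replicate block (edgeR adjusted p = 0.131) and the covariate for the kind of library (adjusted p = 0.0754). Crim1, a membrane protein that binds BMPs, rose by 0.90 in SmoM2.

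**Figure D4:**
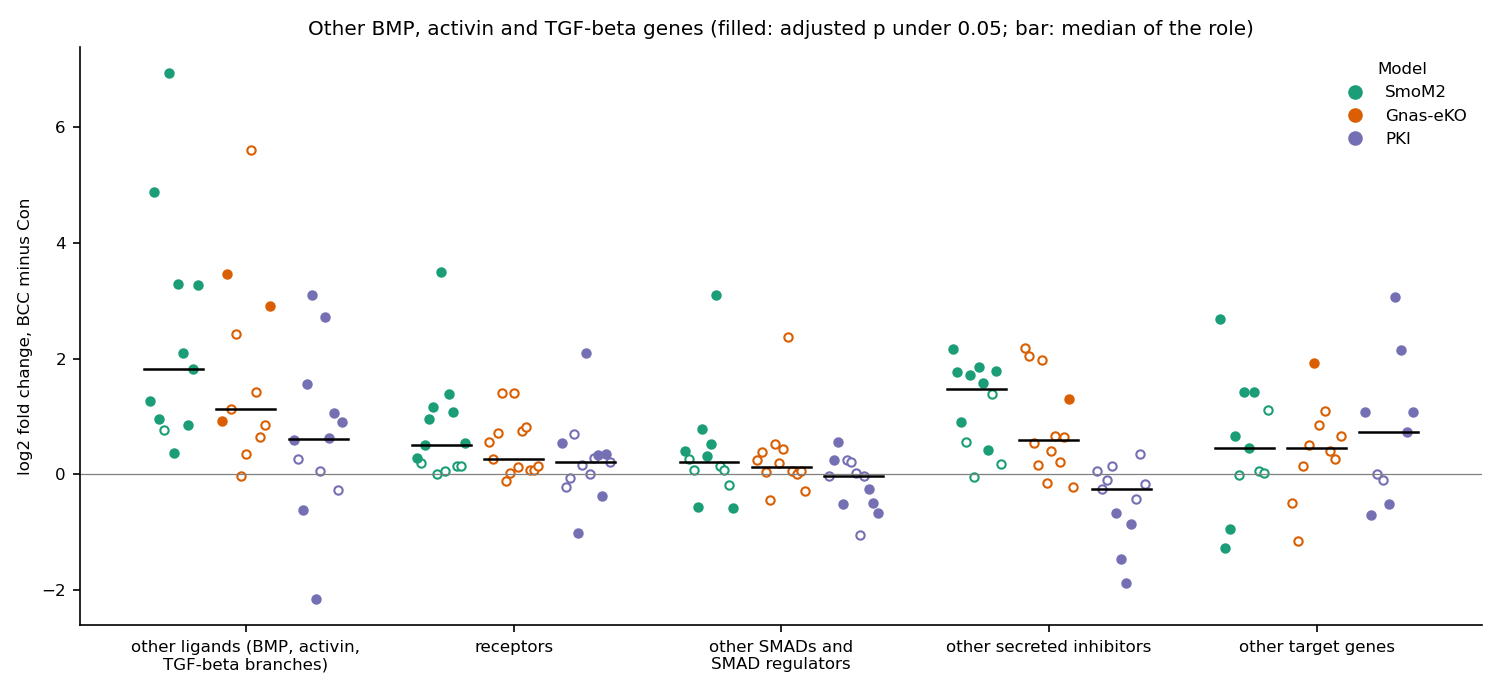
Log2 fold change, BCC minus Con (vertical axis), of the tested genes of the pathway list by role and model. Points are genes, filled where the edgeR adjusted p is under 0.05, and black bars are medians. Other secreted inhibitors have a median of 1.48 for SmoM2, 0.59 for Gnas-eKO and -0.25 for PKI.

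Of the receptors, 8 of 13 rose in SmoM2 and none fell, none of 13 passed in Gnas-eKO, and in PKI 4 rose and 2 fell of 13. These are 61.5%, 0% and 46.2%, against 29.7%, 1.63% and 34.5% of all genes. Bmpr1b, a type I BMP receptor, rose from 0.982 to 11.3 CPM in SmoM2 (3.50 ± 0.32, edgeR adjusted p = 4.53e-05) and from 0.922 to 3.97 in PKI (2.09 ± 0.37, adjusted p = 0.00277). Acvrl1, a type I receptor best known from endothelium, rose by 1.17 in SmoM2 and fell by 1.02 in PKI, with a difference between the models of -2.19 (edgeR adjusted p = 2.26e-05). The endothelial and mural marker sum was 2.11 to 4.22 CPM in Con and 4.18 to 6.66 in BCC of SmoM2, and 1.7 to 5.12 and 7.39 to 12.2 in PKI. Acvr1, a type I receptor for BMPs and activins, rose by 0.54 in PKI and by 0.28 in SmoM2, where the call was lost in 5 of the 7 fits with a library left out. With all libraries kept, that call was also lost with RLE size factors, no filter, the fit of all libraries and the replicate block (edgeR adjusted p 0.0521 to 0.214). Tgfbr2, the type II TGF-beta receptor, rose by 0.54 in SmoM2.

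SMADs and their regulators gave 5 higher and 2 lower of 12 in SmoM2, none in Gnas-eKO, and 2 higher and 4 lower in PKI. These are 58.3%, 0% and 50% of the 12, against the same shares of all genes as for the receptors. Smad9, a BMP-branch SMAD, rose from 1.08 to 9.29 CPM in SmoM2 (3.09 ± 0.31, edgeR adjusted p = 8.01e-05). In Gnas-eKO it stood at 1.42 CPM in Con and 7.41 in BCC, every tumour library above every control (edgeR adjusted p = 0.0507). There it passed without BCC replicate 2 (adjusted p = 0.0282) or replicate 3 (adjusted p = 0.0249). With any other single library left out it did not (edgeR adjusted p up to 0.231). In PKI it stood at 2.49 and 1.19 CPM (edgeR adjusted p = 0.068). Smad5, of the same branch, rose by 0.52 in SmoM2, and Smad3, of the TGF-beta branch, by 0.78. Tob2, a repressor of cell growth, fell by 0.58 in SmoM2 and by 0.66 in PKI.

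The other targets, Id4 among them, gave 5 higher and 2 lower of 11 in SmoM2, 1 higher of 10 in Gnas-eKO, and 5 higher and 2 lower of 9 in PKI. These are 63.6%, 10% and 77.8%, against 29.7%, 1.63% and 34.5% of all genes. Id4, a further Id gene, is named here after its values were seen. It rose from 32.5 ± 4.92 to 44.1 ± 3.91 CPM in SmoM2 (0.46 ± 0.11, edgeR adjusted p = 0.0139), a call lost in the fit of all libraries (adjusted p = 0.0594) and with the replicate block (adjusted p = 0.0714). In PKI it fell from 35.9 ± 3.62 to 25 ± 1.92 CPM (-0.51 ± 0.10, edgeR adjusted p = 0.00464), and the effect was lower in PKI than in SmoM2 by 0.97 (-0.97 ± 0.15, edgeR adjusted p = 0.00061). In Gnas-eKO its log2 change was 0.85 ± 0.22 (edgeR adjusted p = 0.0901), and without BCC replicate 2 it was 0.97 and passed (adjusted p = 0.0218). With any other single library left out it did not pass there (edgeR adjusted p up to 0.315). Dlx3, a homeobox gene of epidermal and hair differentiation, fell from 69.2 ± 30.9 to 28.2 ± 6.4 CPM in SmoM2 (-1.28 ± 0.32, edgeR adjusted p = 0.0232) and rose from 60.1 ± 18 to 126 ± 8.1 in PKI (1.08 ± 0.17, edgeR adjusted p = 0.00222). In SmoM2 it no longer passed without BCC replicate 1 or replicate 2, or with all libraries and no filter on low counts (edgeR adjusted p = 0.0531). The difference of 2.36 (edgeR adjusted p = 0.00128) had the same sign as that of Bmp4. Lef1, the Wnt-responsive factor of the hair matrix, rose from 3.24 to 27.5 CPM in PKI (3.07 ± 0.32, edgeR adjusted p = 0.000422), and it rose by 1.43 in SmoM2. The SmoM2 call was lost in 5 of the 7 fits with a library left out, and with no filter on low counts (edgeR adjusted p = 0.0757). The difference between the 2 models, 1.64 ± 0.58, did not pass (edgeR adjusted p = 0.0569). It passed with DESeq2 (1.67, adjusted p = 0.0103), with the kind of library as a covariate (edgeR adjusted p = 0.0496) and in 2 of the 14 edgeR fits with a library left out. Dlx5 fell by 0.94 in SmoM2 and by 0.70 in PKI, there with an edgeR adjusted p of 0.0681 without Con replicate 2, and Gata3, a factor of the inner root sheath and epidermis, rose by 0.67 in SmoM2.

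For the 3 genes with the largest called changes, the genes with the most similar profile were sought among 12030 genes, by the root-mean-square (RMS) difference over the 21 libraries in log2 CPM relative to the Con mean of the model. For Bmp2, whose own profile had an RMS of 0.629, these were Nr3c1 (0.174), Cdon (0.233) and Sorbs3 (0.238). Nr3c1 encodes the glucocorticoid receptor and changed by -1.14 in PKI, the same as Bmp2, beside -0.11 and -0.18 in SmoM2 and Gnas-eKO. Cdon encodes a Hedgehog co-receptor and changed by -1.22 in PKI. The genes nearest to Fst (own RMS 1.16) were Mertk (0.292), Arntl2 (0.383) and Gm20554 (0.408). The change of Mertk, a receptor kinase for dying cells, was 1.55 in SmoM2, with 1.72 in Gnas-eKO and 0.13 in PKI. Those nearest to Bmp4 (own RMS 0.855) were Thbd (0.349), Map3k6 (0.423) and Sema4d (0.428), so no gene matched Bmp4 as closely as Nr3c1 matched Bmp2. Thbd, thrombomodulin, had a log2 change of -0.99 for SmoM2, -0.80 for Gnas-eKO and 0.60 for PKI. All 3 profiles share the same libraries and batches, and likeness is given with no test.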

How the data were processed

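RNA came from tail keratinocytes, with a stranded polyA mRNA preparation, per the labels' protocols. The submitters' processing notes name bcl2fastq 2.20, cutadapt 1.18, STAR 2.7.0f, Partek and the build mm10; the counting settings and strand use are not given in the sources used here. The authors deposited estimated counts per gene, of which 32.4% are not whole, with no gene under 10 counts in sum. Per the file headers, the second deposited table holds a normalized signal, found here to be each count times a library factor plus 0.001; it served as an alternative.

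After rounding, the estimated counts went into edgeR 4.0.16 (R 4.3.3): filterByExpr by group, TMM scaling and the robust quasi-likelihood test on the 7 libraries of a model, or on 14 for differences between models. P-values were adjusted by Benjamini-Hochberg over all genes tested, and genes under 0.05 were called. Standard errors are the log2 fold change over the square root of F. CPM used TMM over all 21 libraries; CPM per kb used union exon length in GENCODE M21. The steps were tested on simulated data.

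The 10 genes, the lists and the tests were chosen with earlier results of these data known. Of the other pathway genes, up to 4 per role were named, those called in at least 1 model with the smallest adjusted p. Profiles were compared on log2 CPM with a prior count of 2, among genes with a mean of at least 2. Alternatives were RLE size factors, DESeq2 1.42.0, no filter, a fit of all libraries, a replicate block, the deposited signal with limma 3.58.1, leaving out each library and, added after seeing the data, a covariate for libraries with Xist or Y-linked reads.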

Additional observations from a re-analysis of the deposited data

Results flagged for a closer look

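The effect of BCC differed between PKI and SmoM2 for 4 of the 10 genes by the interaction test in edgeR on 14 libraries: Bmp4 (2.32), Bmp2 (-1.10), Fst (-1.10) and Smad7 (-0.47), all as log2 differences. Between PKI and Gnas-eKO it differed for Bmp4 (1.70). Among the 30 sets of 4 tumour libraries, 1 value stood apart by Dixon's criterion, where chance gives about 1 in 20: Bmp7 in PKI BCC replicate 3, with 116 CPM beside 136, 134 and 134 CPM in the other 3 libraries. The control libraries of PKI also include a value of 116 CPM, and the Bmp7 change in PKI without that library was 0.15, not past the threshold.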

How the results depend on the processing

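With all libraries kept, 628 of 679 gene values kept direction and side of the threshold, 17 were weaker, 24 stronger and 10 reversed; with 1 library left out, 920 of 1029 did, 59 were weaker, 20 stronger and 30 reversed. All reversed values were of genes not called. Causes were not tested. In SmoM2 the count of the 10 genes called went from 3 to 5 with DESeq2, 5 with the deposited signal in limma and 6 with the Xist covariate, and was 3 to 8 with a library left out. In Gnas-eKO the count of all genes called went from 267 to 1535 with DESeq2, 2644 in the fit of all libraries, 135 with the replicate block and 106 with the Xist covariate (0 to 1910 with a library left out). Its pathway genes called went from 5 to 20, 25, 3 and 1 under the same settings (0 to 20), and its count of the 10 genes from 0 to 1 with DESeq2 and 1 in the fit of all libraries (0 to 2). For PKI against Gnas-eKO the count went from 1 to 2 with DESeq2 and 0 with the Xist covariate (0 to 2), and for Xist against Y-linked libraries from 1 to 2 with DESeq2 (0 to 3).

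Same-numbered libraries did not deviate together throughout (correlations -0.111 to -0.076 in SmoM2, 0.0212 to 0.146 in Gnas-eKO, -0.0539 to 0.242 in PKI). Groups of 3 or 4 libraries cannot show in this way whether same-numbered libraries were paired, and the sources used here do not say. With the replicate block, Bmp7 in SmoM2 became -0.02, Bmp2 in Gnas-eKO -0.25, Smad7 in PKI 0.07, Id2 in PKI 0.20 and Bmp2 in Gnas-eKO against SmoM2 -0.22; Id1 in PKI passed (0.78, edgeR adjusted p = 0.0401), and Smad7 in PKI against SmoM2 did not (adjusted p = 0.0624). With limma on the deposited signal, Bmp2 in Gnas-eKO became -0.15, and against SmoM2 -0.12. With the Xist covariate, Bambi became 0.07 in Gnas-eKO and -0.06 in PKI, and Smad6 -0.07 in PKI. With a library left out, the values that changed sign ranged from -0.14 to 0.03 for Bmp2 and -0.09 to 0.12 for Bmp7 in SmoM2, from -0.15 to 0.32 for Bmp2, -0.41 to 0.15 for Bambi and -0.02 to 0.28 for Id1 in Gnas-eKO, from -0.16 to 0.52 for Bambi, -0.13 to 0.37 for Smad6, -0.07 to 0.11 for Smad7 and -0.21 to 0.18 for Id2 in PKI, from -0.11 to 0.37 for Bmp2 and -0.22 to 0.01 for Smad7 in Gnas-eKO against SmoM2, and from -0.06 to 0.00 for Bmp7 in Xist against Y-linked libraries. With 3 or 4 libraries a group, changes can be missed, and not only small ones. In Gnas-eKO, log2 changes of 5.60 for Inhba and 2.24 for Fst did not pass (edgeR adjusted p = 0.052 and 0.0647).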
